A study of Sus scrofa with 2 samples.

Results

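Between the topologically associating domains (TADs) listed for pig spleen lay long stretches of chromosome in which no TAD was listed. The regions described here are the 438 such gaps of 1 Mb or more on chromosomes 1 to 18, out of 1774 stretches between consecutive TADs. They were chosen from the deposited TAD positions alone: overlapping TADs were merged into 1797 merged TADs, each stretch between neighbouring merged TADs was measured, and those of 1 Mb or longer were kept. The stretches before the first and after the last TAD of a chromosome were not used, and 19 of these tips were 1 Mb or longer. A gap states only that the authors' list holds no TAD there, and neither the TAD caller nor its settings is known here.

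The map came from in situ Hi-C, in which fixed chromatin is cut, religated and sequenced so that DNA segments that lay close together in the nucleus are read as pairs. The tissue was spleen, from pigs (Sus scrofa), and the 2 biological replicates, r1 and r2, form a single group with no treatment named. No strain, sex or age is stated in the labels, and what the animals share beyond species and tissue is not given. The authors deposited 1 list of 1927 TADs and 1 list of 3410 loops for the series, of which 1908 TADs and 3261 loops lay on chromosomes 1 to 18.

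No value per replicate can be given from these lists, so the errors below are the spread between the 18 chromosomes or the counting error of a share. The sequencing depth is unknown here, and the contacts behind a loop are the only measure of its precision. TADs and loops were called from the same Hi-C data and are not independent of each other, whereas the genes came from an annotation that the choice of gaps did not use. Hi-C measures contacts and not expression, so the tissue label cannot be checked against marker genes, and spleen is a mixture of lymphocytes, macrophages, stromal and red blood cells.

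A TAD is a stretch of chromatin whose parts contact each other more than they contact their surroundings. Many TADs and loops form when the ring-shaped cohesin complex reels in chromatin until it meets the zinc finger protein CTCF. Mammalian chromosomes also hold gene deserts, long stretches with few genes that often lie at the nuclear lamina, and some deserts carry distant enhancers of the developmental genes inside or beside them.

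The gaps together spanned 1164.8 Mb, or 52.6% of the 2215.3 Mb between the first and the last TAD of each chromosome. Merged TADs took up 659.86 Mb, and the 1336 shorter stretches between them took up 390.58 Mb. The median gap was 1890 kb long, with quartiles of 1310 and 3227.5 kb, and lengths ran from 1000 to 19160 kb. Of the gaps, 236 were under 2 Mb and 48 were 5 Mb or more. The limit of 1 Mb did not fall at a break in the lengths. The gaps just inside it measured 1000, 1000, 1000, 1010 and 1010 kb and the stretches just outside it 990, 990, 990, 980 and 980 kb, with 32 gaps from 1000 to 1100 kb and 47 stretches from 900 to 1000 kb. The share of a chromosome that lay in gaps was 51.3 ± 11.4% (SD, n = 18 chromosomes). It was lowest on chromosome 12, at 30.03%, and highest on chromosome 11, at 72.7%.

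The 10 longest gaps held from 11 to 77 protein-coding genes each. The longest gap of all, on chromosome 11 from 25940001 to 45100000, spanned 19.16 Mb and held 15 protein-coding genes, among them PCDH9, a protocadherin, DACH1, a developmental transcription factor, DIAPH3, an actin nucleator, and KLHL1, an actin-binding protein of neurons. Its longest stretch without any annotated gene was 2376.2 kb. The next, of 14.43 Mb on chromosome 8 from 54910001 to 69340000, held 77 protein-coding genes, with ADGRL3, a latrophilin receptor at synapses, and SLC4A4, a bicarbonate transporter, among the longest. A gap of 12.91 Mb on chromosome 11, from 52620001 to 65530000, held the glypicans GPC5 and GPC6, and one of 11.61 Mb on chromosome 16, from 7210001 to 18820000, held CDH18, CDH12 and CDH10, cadherins of the nervous system.

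The other 6 of the 10 longest were between 8.85 and 11 Mb. That on chromosome 2 from 29500001 to 40500000 held NELL1, NAV2, LUZP2 and ANO3. That on chromosome 13 from 168520001 to 179350000 held 11 genes, with ROBO1 and ROBO2, the receptors of the axon guidance protein Slit, CADM2, a synaptic adhesion molecule, and GBE1, the glycogen branching enzyme. MAGI2, CACNA2D1, SEMA3A and PCLO lay in the gap on chromosome 9 from 92580001 to 102380000. PCLO is a scaffold of the presynaptic active zone and SEMA3A an axon repellent. The gap on chromosome 1 from 169930001 to 179460000 held MDGA2 and LRFN5, both synaptic adhesion proteins, with TOGARAM1 and FANCM. SYT1, the calcium sensor of synaptic vesicles, lay with MGAT4C, PPFIA2 and TMTC2 in the gap on chromosome 5 from 94380001 to 103250000. CSMD3 lay with TRPS1, RSPO2 and PKHD1L1 in the gap on chromosome 4 from 20880001 to 29730000. Gene density in these 10 gaps ranged from 0.783 protein-coding genes per Mb, in the longest, to 5.34, in the gap on chromosome 8.

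Gaps held fewer genes for their length than either of the other kinds of region. Counting each protein-coding gene by its midpoint, gaps held 5.77 genes per Mb, merged TADs 9.11 and the shorter stretches between TADs 13.4. Of the 18722 protein-coding genes of chromosomes 1 to 18, 6724 (35.9%) lay in gaps, against 52.6% of the length. Over chromosomes the density was 6.41 ± 3.61 genes per Mb in gaps, 9.10 ± 2.98 in TADs and 12.5 ± 4.89 in short stretches (SD, n = 18 chromosomes). Gaps were below short stretches on 18 of 18 chromosomes and below TADs on 16 of 18. The exceptions were chromosome 12, with 18.4 genes per Mb in gaps and 15.4 in TADs, and chromosome 9, with 8.66 and 7.86. Protein-coding genes lay over 41.2% of the length of gaps, 53.8% of that of TADs and 56.4% of that of short stretches. There was no replicate to test these differences over. The counts of chromosomes describe how widely they held and are not a test.

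**Figure D1:**
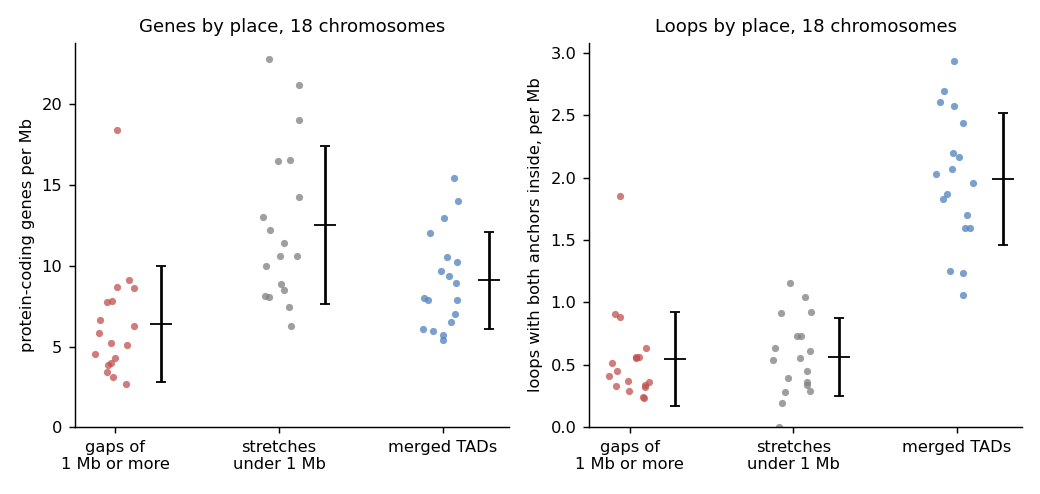
Protein-coding genes per Mb (left) and loops with both anchors inside per Mb (right) in gaps of 1 Mb or more, in shorter stretches between TADs and in merged TADs. Each point is 1 of 18 chromosomes, and the line and bars are the mean ± SD over them. Gene density in gaps was 6.41 ± 3.61 per Mb with chromosome 12 alone at 18.4, and loop density in gaps was lower than in TADs on every one of the 18 chromosomes.

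The genes found in gaps differed by size. Of genes that span 500 kb or more, 166 of 245 (67.8%) lay in gaps. The share was 39.1% for spans of 100 to 500 kb, 32.9% for 20 to 100 kb, 31.4% for 5 to 20 kb and 44.5% for spans under 5 kb. Both ends of the size range were thus above the 35.9% of all genes. Of the 245 longest genes, 20 lay in short stretches and 56 in TADs. The median gene spanned 20.3 kb in gaps and 24.4 kb in TADs, with an upper quartile of 65.7 and 68.7 kb.

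Genes without an assigned name were more often in gaps. Symbols that begin with LOC, which RefSeq gives to genes it has not named, made up 24.5% of the protein-coding genes of gaps, 13.2% of those of short stretches and 8.92% of those of TADs. Of 3016 such genes 1646 (54.6%) lay in gaps, against 5078 of 15706 genes (32.3%) with another symbol. Many LOC genes belong to families of near-identical copies, and their number and placement depend on the assembly. With LOC symbols left out, gaps held 4.36 genes per Mb and TADs 8.30. Pseudogenes lay in gaps in 52.3% of cases (1096 of 2096), long non-coding RNA genes in 39.6% and microRNA genes in 32.2%.

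Gene density varied widely among the gaps themselves, from 0 to 64.8 protein-coding genes per Mb, with a median of 4.58 and quartiles of 2.51 and 8.38. A gap with at most 1 gene per Mb is called gene-poor below and one with at least 10 per Mb gene-rich. This gave 31 gene-poor, 79 gene-rich and 328 middle gaps. The densities just inside and outside the limits were 1.00 and 1.01, and 10.1 and 9.80 genes per Mb, so neither limit fell at a break. With limits of 2 and 15 genes per Mb the counts were 85 gene-poor and 44 gene-rich gaps, and with all annotated genes counted they were 1 and 148. Longer gaps were on the whole less dense, with a Spearman's rho of -0.35 between length and density over 438 gaps. This is a description of gaps that share their chromosomes and their annotation.

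**Figure D2:**
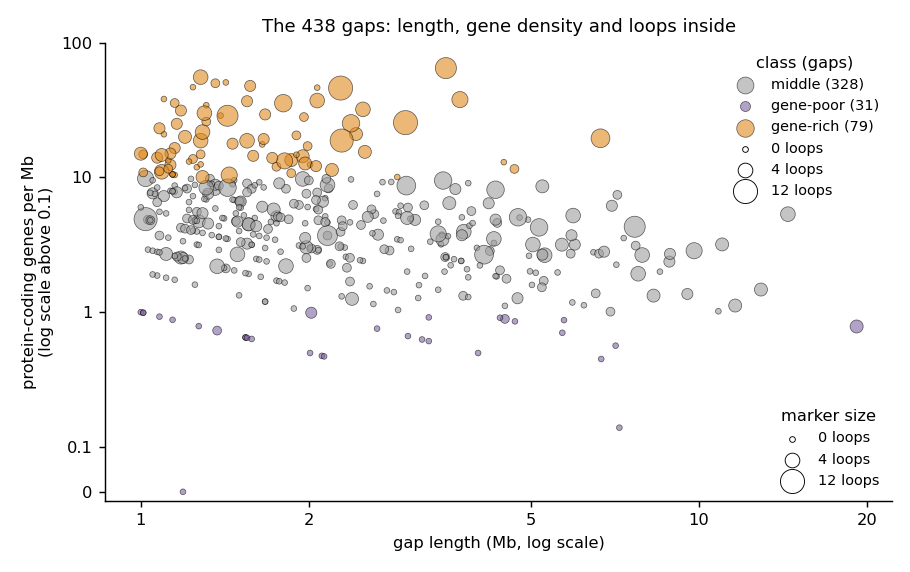
Length in Mb (horizontal, log scale) against protein-coding genes per Mb (vertical, log scale above 0.1 and linear below it) for the 438 gaps. Colour marks the 31 gene-poor, 328 middle and 79 gene-rich gaps, and marker size the number of loops inside, from 0 to 12. The gap of 19.16 Mb stands at the far right, the gap with 64.8 genes per Mb at the top, and most of the large markers lie in the upper part.

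Gene-poor gaps made up 9.28% of the gap length, or 108.1 Mb, and held 73 protein-coding genes in all. Their median gene spanned 108.8 kb, against 43.2 kb in middle gaps and 8.50 kb in gene-rich ones. Of the 31, 15 held a single protein-coding gene and 1, on chromosome 15 from 5000001 to 6190000, held none. A stretch of 1 Mb or more without any annotated gene was found in 12 of them and in 41 of all gaps. Some of the single genes are named here, chosen after their values were seen. PCDH7, a protocadherin, was alone in 7.20 Mb on chromosome 8, from 20600001 to 27800000. FAT4, a giant cadherin of planar cell polarity, was alone in 2.11 Mb on the same chromosome, from 97230001 to 99340000. KCND2, a voltage-gated potassium channel, was alone in 2.01 Mb on chromosome 18, and ISL1, a transcription factor of motor neurons and heart, in 1.55 Mb on chromosome 16. KAZN lay over 95.9% of its gap of 1.14 Mb on chromosome 6, and THSD7B over 85.8% of its gap of 1.54 Mb on chromosome 15, so a gap with few genes was not always a gap with little gene sequence.

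Of 23 genes in gaps from a list of cadherins and protocadherins, 8 lay in gene-poor gaps, which held 1.09% of all genes of gaps. These 8 lay in 4 gaps and are not 8 separate locations. CDH8 and CDH11, classical cadherins, shared a gap of 6.68 Mb on chromosome 6 from 20430001 to 27110000 with 1 LOC gene. PCDH10 and PCDH18 lay with PABPC4L in 7.09 Mb on chromosome 8 from 88790001 to 95880000, where protein-coding genes covered 2.68% of the length. Other gene-poor gaps held LRP1B, a giant lipoprotein receptor relative, with KYNU, or DCC, the netrin receptor, with MEX3C. TENM3, a teneurin that pairs neurons with their targets, shared 5.73 Mb on chromosome 15 with VEGFC, a growth factor of lymphatic vessels, NEIL3 and DCTD.

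Gene-rich gaps were the reverse: 11.9% of the gap length held 46.4% of the genes of gaps, or 3123 genes. LOC symbols made up 38.0% of these genes, against 12.6% in middle gaps. The densest gap, on chromosome 9 from 2540001 to 6060000, held 228 genes in 3.52 Mb, and 200 of them were LOC genes. DNHD1, RRM1, DCHS1 and TRIM3 were its longest named genes, and RRM1 is the large subunit of ribonucleotide reductase. Of the same kind was that on chromosome 5 from 19570001 to 21140000, with 65 LOC genes among 75, beside TESPA1, NCKAP1L, PDE1B and ITGA7. NCKAP1L is the blood-cell member of the actin-regulating WAVE complex, and TESPA1 acts in T cell receptor signalling. On chromosome 2 from 10840001 to 14570000, 97 of 141 genes were LOC genes, and CTNND1, GLYATL2 and LPXN were among the longest of the named ones.

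The other gaps of the 10 densest that are given here had more named than LOC genes, except that on chromosome 7. That on chromosome 12 from 20560001 to 21840000 held 71 genes, with ACLY, which makes cytosolic acetyl-CoA, JUP, the junction protein plakoglobin, DNAJC7 and ZNF385C. That on chromosome 6 from 62730001 to 64150000 held 72, with GNB1, a G protein subunit, PRKCZ, CFAP74 and AGRN, and that from 54720001 to 56080000 held 68, with MYH14, VRK3, LRRC4B and SHANK1. Another gap of that chromosome, from 58220001 to 59460000, held 58, with NLRP7, PTPRH, SIGLEC5 and GP6, the collagen receptor of platelets. The gaps on chromosome 3 from 39980001 to 42050000 and from 111510001 to 112610000 held 96 and 42 genes, LMF1, IARS, RAB11FIP3 and UNKL in the first and OTOF, DPYSL5, MAPRE3 and CIB4 in the second. The second was the only one of the 10 densest gaps with no LOC gene. On chromosome 7, the gap from 20310001 to 22590000 had 105 genes in 2.28 Mb, with the phosphate transporters SLC17A1, SLC17A2, SLC17A3 and SLC17A4, 68 LOC genes and 117 tRNA genes. Of the 440 tRNA genes of the autosomes 202 lay in gaps, so this gap held more than all the others together.

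Some families of related genes lay together in 1 gap. They were looked for after the genes of the gaps had been seen, as sets of at least 4 named genes that share the letters of their symbol. Families outside gaps were not counted, so no share of families can be given. All 35 autosomal keratin (KRT) genes, the intermediate filaments of epithelia, were in gaps, 20 of them in the gap on chromosome 12 from 20560001 to 21840000 and 15 in that on chromosome 5 from 16580001 to 18540000. The 13 kallikreins (KLK), secreted proteases, shared the gap on chromosome 6 from 54720001 to 56080000. All 10 MS4A genes, membrane proteins of leukocytes that include MS4A1, the B cell antigen CD20, lay in the gap on chromosome 2 from 10840001 to 14570000. The 4 casein genes, which encode milk proteins, were in the gap of 14.43 Mb on chromosome 8. The 6 BPIFB genes lay in a gap on chromosome 17, the 5 trace amine receptors (TAAR) in a gap on chromosome 1, and 7 of 9 SERPINB protease inhibitors in another gap of chromosome 1. Receptors of the interleukin-1 family, IL1R1, IL1R2, IL1RL1, IL1RL2, IL18R1 and IL18RAP, lay in the gap on chromosome 3 from 51320001 to 52530000, and IL10, IL19, IL20 and IL24 in that on chromosome 9 from 67250001 to 72490000. The members of such a family are neighbours, so each family is 1 location and not several independent ones.

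Gene segments of antigen receptors, which lymphocytes rearrange, were mostly in gaps. Of 73 variable (V) segments annotated on the autosomes 63 (86.3%) lay in gaps, 10 in short stretches and 0 in TADs. Counting segments of every kind, 47 lay in the gap on chromosome 7 from 76110001 to 77660000, beside SALL2, ABHD4 and OXA1L, and 17 in that on chromosome 18 from 7010001 to 8910000, beside MGAM and MGAM2. The 63 segments thus stand for 3 gaps at most.

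Lists of genes by function were placed against the gaps next. The 11 lists matched 485 of 516 entries to an autosomal protein-coding gene, and the share of all protein-coding genes in gaps, 35.9%, is the background for each. Intervals are exact binomial 95% intervals, which take genes as independent although neighbours share a gap.

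The lists of synaptic and neuronal adhesion genes, of cadherins and of neurotransmitter receptors and channels had the highest shares in gaps. The cadherin list is not limited to genes of neurons. Of 50 synaptic and neuronal adhesion genes, 42 (84.0%, interval 70.9 to 92.8) lay in gaps, 7 in TADs and 1 in a short stretch. ADGRB3, an adhesion receptor at synapses, ADGRL2 and ADGRL3, latrophilins, and CADM2 are the first 4 by name. TENM2 had the longest span of the list in gaps, with 3459.9 kb, and CNTNAP2, which clusters potassium channels on axons, spanned 2040.6 kb. Of 30 cadherins and protocadherins 23 (76.7%, interval 57.7 to 90.1) were in gaps, with CDH1, the epithelial cadherin, CDH10, CDH11 and CDH12 first by name. Of 56 neurotransmitter receptors and channels 42 (75%, interval 61.6 to 85.6) were in gaps, first CACNA2D1, a calcium channel subunit, and the muscarinic receptors CHRM2 and CHRM3. Neighbouring members shared gaps here too: GABRA2, GABRA4, GABRB1 and GABRG1 lay in 1 gap on chromosome 8. SCN1A, SCN3A, SCN7A and SCN9A, of the voltage-gated sodium channel family, lay in 1 on chromosome 15. The median span of matched members was 745 kb for the adhesion list and 331 kb for the receptors and channels. Of all genes of 500 kb or more 67.8% lay in gaps, and of those of 100 to 500 kb 39.1%, as given above. The part of span in these counts was not tested.

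The list of developmental transcription factors was also above the background, at 39 of 71 (54.9%, interval 42.7 to 66.8), and its genes are short, with a median span of 15.1 kb. It includes NRG1, a growth factor and not a transcription factor, which lay in a gap. Without NRG1 the count was 38 of 70 (54.3%). The 39 stood in gaps of middle density in 38 cases, NRG1 among them, in a gene-rich gap in 1 and in a gene-poor gap in 0. BCL11A, a repressor of fetal globin, FOXA1 and FOXF1 are among the first by name. SOX2 lay in a gap on chromosome 13, and SOX9, the regulator of cartilage and testis, in a gap of 1.06 genes per Mb on chromosome 12. IRX1, IRX2 and IRX4 shared a gap on chromosome 16, IRX3 and IRX5 a gap on chromosome 6, and PAX9, NKX2-1 and FOXA1 a gap on chromosome 7.

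The lists of spleen cell types and of widely expressed genes lay from 20.6% to 38.9%, and every one of their intervals includes the 35.9% of all genes. Of the B cell and plasma cell genes 10 of 33 (30.3%, interval 15.6 to 48.7) lay in gaps, first BACH2, a repressor of plasma cell fate, CD22 and CD40, and 8 of the 10 were in gene-rich gaps, which held 46.4% of all genes of gaps. Of the T and NK cell genes 10 of 37 (27.0%, interval 13.8 to 44.1) did, first CD247, a signalling chain of the T cell receptor, EOMES, GZMB and ICOS. Of the macrophage and monocyte genes 8 of 30 (26.7%, interval 12.3 to 45.9) did, first the complement genes C1QA, C1QB and C1QC, which share a gap on chromosome 6, and CX3CR1. Interferon response genes were at 14 of 36 (38.9%, interval 23.1 to 56.5), with DHX58, EIF2AK2, IFI44 and IFI44L first. Cytosolic ribosomal proteins were at 22 of 72 (30.6%, interval 20.2 to 42.5), with RPL15, RPL17, RPL19 and RPL22 first. Genes of chromatin architecture and repeat silencing were at 11 of 36 (30.6%, interval 16.3 to 48.1), with DNMT3B, a DNA methyltransferase, ESCO2, HELLS and LMNA, the lamin A gene, first. Housekeeping genes had the lowest share, 7 of 34 (20.6%, interval 8.70 to 37.9), with CHMP2A, EMC7 and GPI first.

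**Figure D3:**
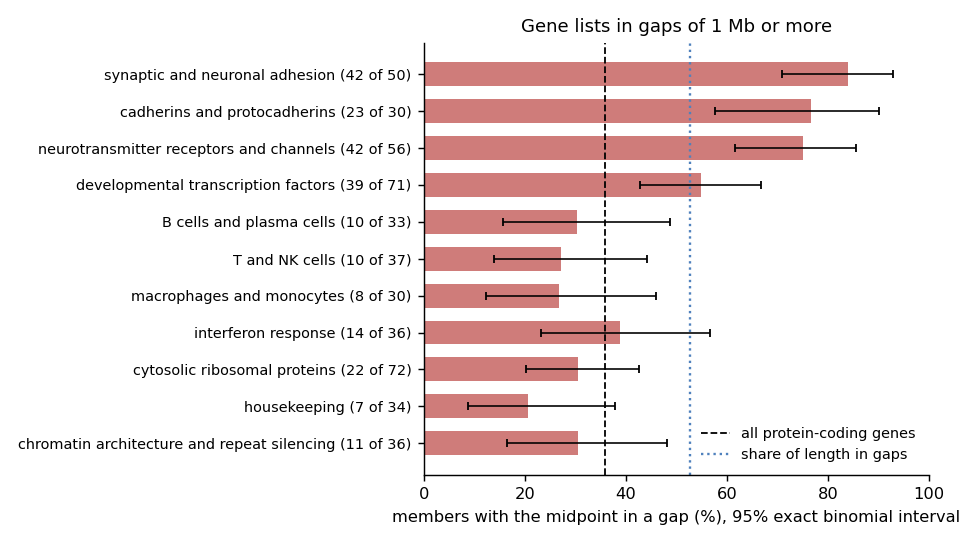
Percent of the matched members of each list with the midpoint in a gap of 1 Mb or more (bars from 0, with exact binomial 95% intervals). The dashed line is the share of all protein-coding genes in gaps (35.9%) and the dotted line the share of length (52.6%). The lists of neuronal adhesion, cadherins and receptors reach 75% or more, and housekeeping genes are lowest at 20.6%.

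Within a gap, genes were denser towards the edges, that is, near the flanking TADs. Up to 100 kb from the nearer edge there were 10.2 protein-coding genes per Mb, from 100 to 250 kb 8.28, from 250 to 500 kb 7.402 and beyond 500 kb 4.29. The 3 outer zones were denser than the interior on 18, 16 and 17 of 18 chromosomes. The interior zone comes more from long gaps, which were less dense. Anchors of loops inside gaps were at 0.970, 1.14, 1.14 and 0.579 per Mb in the same 4 zones, and these values leave out loops with an anchor beyond the edge. Counting the anchors of all loops, the zones had 2.19, 1.31, 1.28 and 0.6205 per Mb, with the outermost the densest. The interior was the sparsest zone by both counts.

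Loops inside gaps were fewer for the length than loops inside TADs. A loop is a pair of 25 kb bins, its anchors, with more contacts than the pixels around it. Both anchors lay in the same gap for 537 of 3261 loops (16.5%, exact binomial 95% interval 15.2 to 17.8). This was 0.461 loops per Mb of gap, against 1.996 per Mb in merged TADs and 0.609 in short stretches. Over chromosomes the values were 0.547 ± 0.379 in gaps, 1.99 ± 0.531 in TADs and 0.565 ± 0.312 in short stretches (SD, n = 18 chromosomes). Gaps were below TADs on 18 of 18 chromosomes and below short stretches on 9 of 18, so the order of gaps and short stretches did not hold across chromosomes. A loop can lie inside a region only if the region is longer than the loop, and that favours long regions. The 537 loops formed 429 groups of touching pixels, and 191 of them touched another.

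The loops were spread unevenly over the gaps. None lay in 223 gaps, 1 in 91, 2 to 4 in 100 and 5 or more in 24. A further 146 loops had 1 anchor midpoint in a gap and the other outside, 34 joined 2 gaps, and 12 reached over a whole gap. No anchor midpoint of any loop lay in 164 gaps. Gene-poor gaps had 0.0648 loops per Mb, with 27 of 31 without a loop, middle gaps 0.366, and gene-rich gaps 1.41, with 20 of 79 without one. Spearman's rho between genes and loops per Mb was 0.42 over 438 gaps, again as a description. Some very dense gaps had none or few: 0 in that on chromosome 3 from 39980001 to 42050000 with 46.4 genes per Mb, and 0 in that on chromosome 6 from 58220001 to 59460000, where 11 loops had 1 anchor inside.

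Loops of gaps were longer than those of TADs and rested on fewer contacts. The median span was 200 kb in gaps and 125 kb in TADs, and 70 gap loops spanned 500 kb or more. The median observed count was 80 contacts (quartiles 58 and 108) in gaps and 129 (quartiles 107 and 149) in TADs. The contacts expected from the pixels around a loop had medians of 38.2 in gaps and 67.3 in TADs, and the ratio of observed to expected contacts was higher in gaps, with a median of 2.19 against 1.86. Among loops of 100 to 200 kb the median was 102.5 contacts in gaps and 133 in TADs. For longer loops it was 65 and 95, but spans were not matched there and reached 3150 kb in gaps and 1850 kb in TADs. The ratio at 100 to 200 kb was 1.95 and 1.83. Loops were listed by q-values that compare each pixel with the pixels around it. A pixel with fewer expected contacts therefore needs a higher ratio to be listed. The part of this listing in the ratios was not tested.

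A share of the gap loops stood far above their surroundings. The ratio of observed to expected contacts was 3 or more for 107 of 537 gap loops (19.9%, exact binomial 95% interval 16.6 to 23.6), 12 of 238 loops in short stretches (5.04%) and 15 of 1317 loops in TADs (1.14%). Over all 3261 autosomal loops, which include those that cross from one kind of region to another, it was 216 (6.62%). Between 100 and 200 kb the shares were 14.2% in gaps and 0.851% in TADs, and above 200 kb 26.3% and 2.32%. Of the 41 autosomal loops with a ratio of 10 or more, 22 were inside gaps. Such loops had few expected contacts: the median of the 107 was 6.03 expected and 38 observed. The listing by q-value described above bears on these shares too, and its part in them was not tested. The highest ratio, 260.84, was that of a loop on chromosome 12 with an end of PMP22, the peripheral myelin protein, in 1 anchor, and it rested on 11 contacts with 0.0422 expected.

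**Figure D4:**
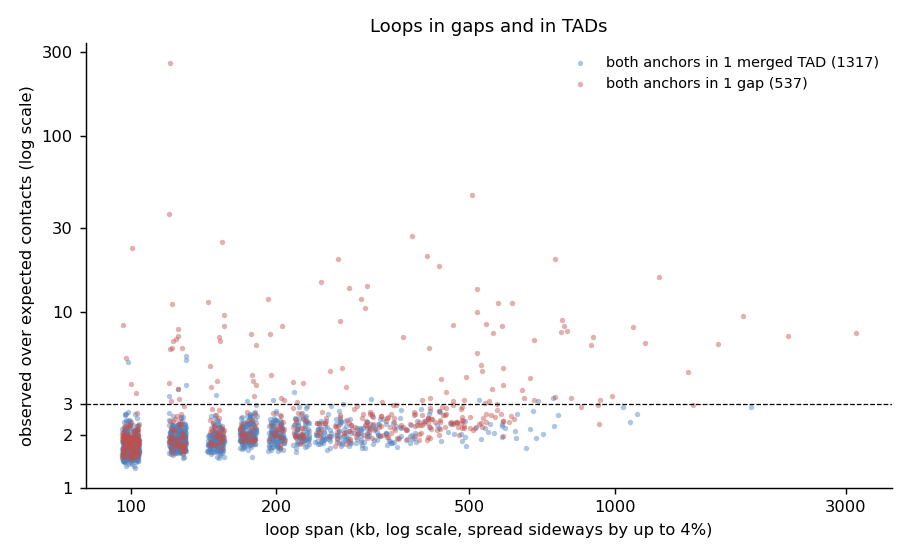
Ratio of observed to expected contacts (vertical, log scale) against span in kb (horizontal, log scale, points spread sideways by up to 4%) for the 537 loops inside a gap and the 1317 inside a merged TAD. The dashed line marks a ratio of 3, which 107 gap loops and 15 TAD loops reach.

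Gaps made up in large part of LOC genes held many of these loops. In the 14 gaps with at least 10 LOC genes that made up at least 50% of their genes, a group set after the data had been seen, there were 86 loops, or 2.33 per Mb, and 42 of them (48.8%) had a ratio of 3 or more. In the other 424 gaps there were 0.400 loops per Mb, and 65 of 451 (14.4%) had such a ratio. Near-identical copies can take up reads that belong to another copy. Gap loops with a ratio of 3 or more had low expected contacts as a whole, as given above. The part of copies in the ratios was not tested.

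Protein-coding gene ends were frequent at the anchors of gap loops. The annotation used has no strand, so a gene end here is either end of a gene. Of 905 distinct anchors 428 (47.3%, exact binomial 95% interval 44.0 to 50.6) held a gene end, against 17.3% of the 46234 bins of 25 kb inside gaps, a ratio of 2.74. In TADs the share was 47.6% of anchors and 25.9% of bins, a ratio of 1.83, and in short stretches 54.2% and 37.3%. Within gaps the shares were 0 of 13 anchors in gene-poor gaps (upper limit 24.7%) against 2.90% of their bins, 38.2% in middle gaps against 13.97% of their bins, and 65.03% in gene-rich gaps against 50.8%. Of the 537 loops 154 had a gene end at both anchors, 210 at 1 and 173 at neither. Of the anchors 770 belonged to 1 gap loop, 115 to 2 and 20 to 3 or more.

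The gap loops with the most contacts lay in gene-rich gaps. The first 3, with 270, 214 and 202 observed contacts, shared an anchor on chromosome 10, in the bin from 19275001 to 19300000. They formed 1 group of touching pixels, and the gene ending in that bin is a LOC gene. A loop of 100 kb on chromosome 7 between the bins that start at 80150001 and 80250001 had 191 contacts with 93.8 expected. One anchor held ends of LPCAT4, a lysophospholipid acyltransferase, NUTM1 and NOP10, a small protein of H/ACA ribonucleoproteins, and the other an end of EMC4, a subunit of the ER membrane complex. On chromosome 12 a loop of 189 contacts with 79.5 expected joined GRN, the progranulin gene, SLC25A39 and RUNDC3A to UBTF, the transcription factor of ribosomal RNA genes, ATXN7L3 and TMUB2. On chromosome 2 an anchor with FCER2, the low-affinity IgE receptor CD23 of B cells, TRAPPC5, PCP2 and MCEMP1 was joined by 186 contacts to a bin without a gene end. Next were anchors at CACNB1 and PLXDC1 (179 contacts), at GPATCH8 and ITGA2B, the platelet integrin (173 contacts), and between CD300A, an inhibitory receptor of leukocytes, and GPR142 with BTBD17 (171 contacts), all on chromosome 12.

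Further loops with gene ends at both anchors had 146 to 167 contacts. Among them, IVD, an enzyme of leucine breakdown, was joined to INAFM2, and MAPKAPK2, a stress kinase, to IL19, the latter with 165 contacts and 95.7 expected. Others joined CSAD to ESPL1, the separase, and MFSD5, and NDUFAF6 to TP53INP1, a target of p53. PDCD5 was joined to NUDT19 and TDRD12, BTBD16 to PLEKHA1, and C5H12orf75 to ADCY6, an adenylyl cyclase. In the keratin gap of chromosome 12, an anchor with RAB5C, KAT2A, HSPB9 and DHX58 was joined to one with DNAJC7, CNP and TTC25, and ACLY with KLHL11 to JUP with HAP1, with 146 contacts each. The ratios of these loops lay between 1.49 and 2.58.

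Several gaps held chains of loops. The gap on chromosome 7 from 20310001 to 22590000 held 12 loops in 7 groups of touching pixels, and 10 of the loops had a gene end at both anchors. ABT1, a nucleolar activator of transcription, had an end in anchors of 6 loops (4 groups), and HMGN4, a nucleosome-binding protein, in those of 5 (4 groups). HIST1H3E, BTN1A1, PRSS16, TMEM225B and ZNF165 were at other anchors. Another 12 loops, in 6 groups, lay in the gap on chromosome 7 from 78570001 to 81550000. Of these, 5 ran from the anchors of LPCAT4 and NUTM1 to those of EMC4, EMC7, KATNBL1, CHRM5 and AVEN, with 65 to 191 contacts and ratios of 1.94 to 2.32, and RYR3, the longest gene of the gap, had no end at any. The other 7 had ratios of 3.66 to 19.99. The highest of the 7, of 750 kb between the bins from 79250001 and 80000001, had 173 contacts with 8.65 expected, and neither of its anchors held a protein-coding gene end. On chromosome 9 the gap from 56890001 to 64560000 held 9 loops in 5 groups. Of these loops 7 had both anchors between 64050001 and 64450000. Ends of FMOD, PRELP and OPTC, small leucine-rich proteoglycans of the extracellular matrix, and of ATP2B4, a calcium pump, lay in anchors there. The gap on chromosome 14 from 15860001 to 19980000 held 7 loops in 3 groups. SCRG1 was at the anchors of 4 of these loops, with HMGB2, GALNTL6 and GALNT7 at others.

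In other gaps few or none of the loops ended at a named gene. The gap on chromosome 5 from 39290001 to 40310000 had 11 loops, in 6 groups of touching pixels, in 1.02 Mb. PHLDA1, NAP1L1, BBS10 and OSBPL8 lay inside it, and an end of none of these was at an anchor. Of the 11, 8 ended in the same bin, from 40175001 to 40200000, 10 had a ratio of 3 or more, and observed counts ran from 27 to 109 contacts. In the gap on chromosome 8 from 52600001 to 54760000, all 8 loops, in 6 groups, shared the bin from 54650001 to 54675000, 85 kb from the edge. Their ratios were 6.49 to 23.2. The gap on chromosome 13 from 159980001 to 162270000 held 11 loops in 8 groups. Of these loops 10 had a ratio of 3 or more, with counts of 10 to 46 contacts. The eleventh joined DCBLD2 and ST3GAL6 to CPOX, an enzyme of haem synthesis, with 75 contacts. On chromosome 2 the gap from 51750001 to 58410000 held 3 nested loops of 1200, 1400 and 1600 kb that share the midpoint 53762500, with 27, 82 and 33 contacts. The gaps on chromosome 9 from 2540001 to 6060000 and on chromosome 12 from 48760001 to 50190000 had 9 loops each, in 7 groups each. The first had no named gene at an anchor, but LOC genes had ends at both anchors of 7 of its 9 loops. The second had RAP1GAP2, ASPA, CTNS, SHPK and SPATA22 at anchors.

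**Figure D5:**
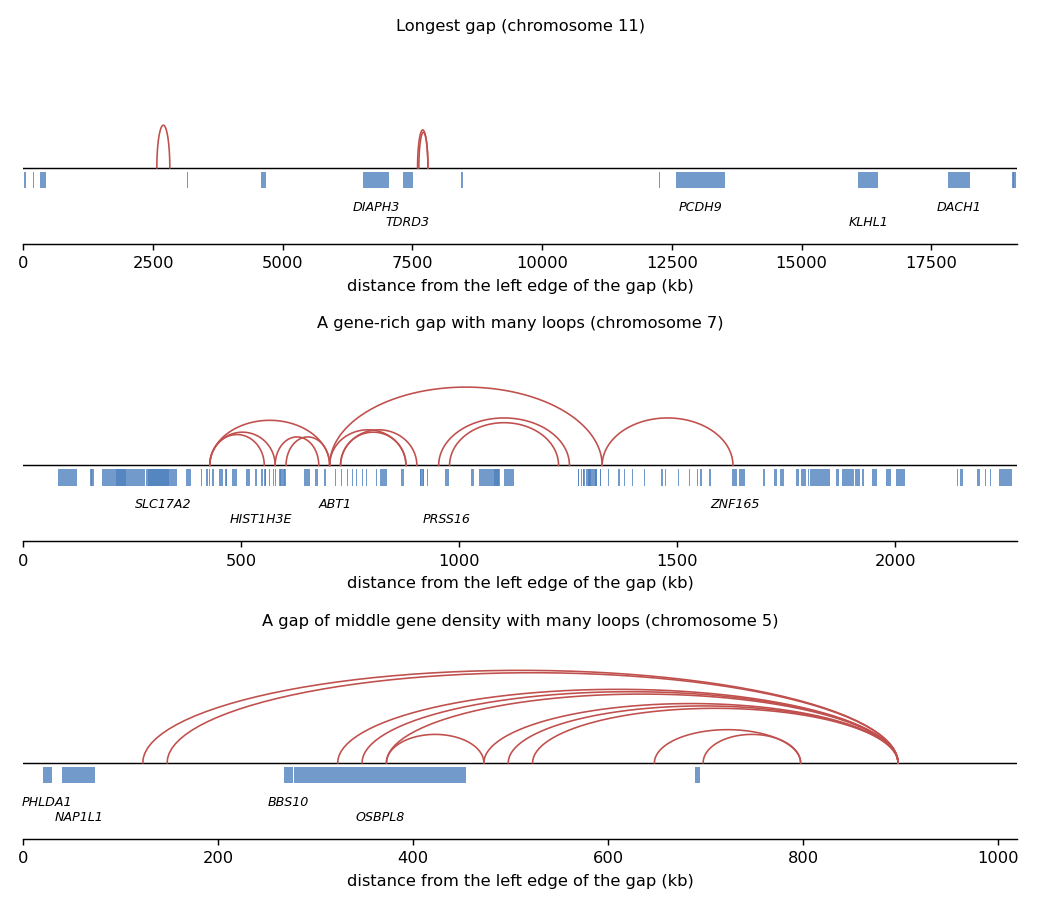
Maps of 3 gaps, drawn to scale as distance in kb from the left edge. Blue boxes are protein-coding genes (some named), and red arcs join the midpoints of loop anchors, with heights that follow the span. The longest gap has 3 short loops, the gene-rich gap on chromosome 7 has 12 arcs along its left and middle part, and 8 of the 11 arcs of the gap on chromosome 5 end at the same anchor.

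The longest gap loops had few contacts. The 10 of 1 Mb or more had 12 to 82 observed contacts, and the longest, of 3150 kb on chromosome 2, had 12 with 1.59 expected. The longest gap, on chromosome 11, had 3 loops of 175 to 250 kb with 45, 49 and 56 contacts, and no gene end was at their anchors.

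Genes of gaps were at gap loop anchors in 593 of 6724 cases (8.82%), which is the background for the lists: 0 of 73 in gene-poor gaps, 260 of 3528 (7.37%) in middle and 333 of 3123 (10.7%) in gene-rich ones. Of gap genes that span 500 kb or more, 2 of 166 (1.20%) had an end there. The members found at anchors are named here for their positions, after these were seen. Of the list members in gaps, 0 of 42 neuronal adhesion genes, 0 of 42 receptors and channels and 1 of 23 cadherins, CDH22, had an end at one. Of the developmental list 5 of 39 did, among them FOXF1, SATB1, SIX3 and TBX20. SIX3, a factor of forebrain and eye development, was at 2 loops with 51 and 60 contacts. SATB1, a chromatin organiser of T cells, was at 1 loop of 300 kb with 78 contacts.

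Members of the immune lists were at a few gap loops. BACH2, CD40 and JCHAIN were those of 10 B cell and plasma cell genes. JCHAIN, which links IgA and IgM into polymers, was at 2 loops of 1 touching group in the gap of 14.43 Mb on chromosome 8. They spanned 100 and 125 kb, with 113 and 110 contacts. BACH2 was at 1 loop of 575 kb with 77 contacts. CD40, the receptor of T cell help, was joined to ELMO2 with 92. CD247, EOMES and LEF1 were those of 10 T and NK cell genes. CD247 was joined to GPA33 with 64 contacts, EOMES, a factor of cytotoxic cells, to CMC1 and AZI2 over 550 kb with 68, and LEF1, a factor of early T cells, was at a loop with 80. C1QB was the 1 of 8 macrophage genes, with 80 contacts. DHX58, EIF2AK2, IFI44 and ZBP1 were those of 14 interferon response genes. Of ribosomal protein genes RPL24, RPL27 and RPS9 (3 of 22) were at gap loops, of housekeeping genes EMC7 (1 of 7) and of the chromatin genes 0 of 11. No test was made of these counts, which range from 0 to 5 genes a list.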

How the data were processed

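Contacts were measured by in situ Hi-C in 2 spleen samples of 1 group, and the analysis began from the TAD and loop tables of the series. The submitters' processing notes name HiC-Pro 3.1.0, and per the file headers juicer_tools 1.9.9 made the list of loops. Not given in the sources used here are the TAD caller, the genome build and any pooling of replicates. The authors' deposited loop table gives observed contacts as raw counts per pixel of 25 kb, the expected signal from the surrounding donut in the same unit, and 4 q-values (FDR) per loop, of which the largest was used. Per the file headers these q-values compare the pixel with its donut, lower-left, horizontal and vertical neighbourhoods. Listed loops had 10 to 1004 contacts and q-values up to 0.0999. The deposited TAD table holds positions that are multiples of 10 kb. Intervals cover counting error only.

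Genes were placed from a RefSeq table of Sscrofa11.1 by midpoint, of which 26902 lay on chromosomes 1 to 18. Genes with an end per anchor were 0.709 at the listed positions and 0.562 to 0.584 after moving anchors by 50 to 200 kb, which is why that assembly was used; gene coordinates are not printed. Counting was done with Python 3.11.15, pandas 2.3.3, NumPy 2.4.6 and SciPy 1.17.1, and figures with matplotlib 3.10.9. The placement of gaps and loops was tried on simulated data, and 50 of 50 planted layouts were found exactly. The planted gap loops had a single span and began near the left edge of a gap, and the placement of genes was not tried.

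The 438 gaps and the 11 gene lists were chosen with earlier results of these data known, so all counts are descriptions and no test was made. The genes named were up to 4 of the longest named genes of the 10 longest gaps, the 10 densest and the 10 with the most loops, the first 4 members of each list by name, and the genes at the 10 gap loops with the most contacts, the 10 longest and 15 with genes at both anchors. Other names were chosen after their values were seen, and a few items that this rule covers are left out of the text. Alternatives were other gap and density limits, gene counts, loop sets and anchors, and leaving out each chromosome. Sequences were not analysed here.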

Additional observations from a re-analysis of the deposited data

How the results depend on the processing

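Of 149 alternative values, 121 moved by less than the spread between chromosomes, the counting interval or 1.5 times, and 28 moved by more. The count of 121 is not a measure of robustness. Densities without 1 chromosome were judged by the spread between chromosomes (SD 3.61 genes per Mb in gaps), which they could hardly exceed. TAD density could not change with the gap limit. A fall from 0.461 to 0.211 loops per Mb, with only the loops of lowest FDR kept, counted as less than the spread. The share of interferon response genes was above that of all genes at 1 Mb (38.9% against 35.9%). It was below that of all genes at 2 Mb (13.9% against 20.2%). The causes of the moves were not tested. With a minimum gap of 500 kb there were 744 gaps and 21.3% of loops inside them. With 2 Mb there were 202 gaps, with 295 loops (9.05%), and the list shares in gaps were 60.7% for receptors and channels, 31.0% for developmental transcription factors, 12.1% for B cells, 8.11% for T and NK cells, 6.67% for macrophages, 13.9% for interferon response, 8.33% for ribosomal proteins and 13.9% for chromatin genes, beside 20.2% of all protein-coding genes. Counting all annotated genes gave 13.1 genes per Mb in TADs, 1 gene-poor and 148 gene-rich gaps, and gene ends at 55.4% of anchors. Limits of 2 and 15 genes per Mb gave 85 and 44 gaps. The loop share was 19.005% with 1 loop per touching group, 15.1% (246 loops) in the 1630 loops with the lowest FDR and 14.3% with anchors at least 50 kb from the edges. Loops of 100 to 200 kb had medians of 102.5 contacts and a ratio of 1.95. Anchors extended by 10 kb held gene ends in 63.1%. Without the gaps rich in LOC genes, an alternative chosen after seeing the data, as were leaving out LOC symbols and NRG1, the loop share was 13.8% and the anchor share 43.3%. Leaving out each chromosome in turn gave 5.55 to 5.99 genes per Mb in gaps, 0.605 to 0.650 times the density of TADs (all chromosomes, 0.634), and 0.439 to 0.479 loops per Mb. No paired analysis was possible because the 2 replicates form a single group and the tables hold no value per replicate.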

Other observations

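Some values of the gaps belong to none of the comparisons above. The 12 loops that reached over a whole gap crossed 9 gaps. Gap loops within 50 kb of an edge numbered 71. Of the 81 autosomal loops of 1 Mb or more, 10 were inside gaps. TAS2R3, TAS2R4, TAS2R38, TAS2R39 and TAS2R40, bitter taste receptors, shared the gap on chromosome 18 with 17 antigen receptor segments, and ends of TAS2R3 and TAS2R4 were at its only loop, with 64 contacts. In the gap on chromosome 5 from 60800001 to 62100000, 7 C-type lectins, among them CLEC7A, the beta-glucan receptor of myeloid cells, and CLEC9A, of dendritic cells, lay with KLRD1 and KLRK1 of natural killer cells, and LY49 was at a loop anchor. The 4 metallothioneins lay with CDH1 and CDH3 in 1.01 Mb on chromosome 6. Of the flavin monooxygenases, 4 of 5 autosomal ones were in the same gap of chromosome 9 as the proteoglycan loops.

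The main limits are these. The TAD list sets the gaps, no setting of its caller is known here, and a region with no listed TAD is all that a gap means. No values per replicate and no second tissue were analysed here. The assembly's gene models decide the counts of LOC genes, pseudogenes and segments. Loops with few expected contacts have ratios that change much with a single contact.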
